A study of Mus musculus with 8 samples.

Results

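The RNA exosome is the multi-subunit machine that degrades and trims RNA from its 3′ end. Its core subunits are described here at the level of their own transcripts in mouse embryonic stem cells. The members are the genes Exosc1 to Exosc10, taken by name from a deposited table of 17597 genes, and all 10 were found. The libraries came from a cell line of mixed Cast and 129S background with 2 clones, C3 and H5, in which METTL3 carries the FKBP12 F36V degron tag and the endogenous Xist promoter was replaced by a TetOn promoter. METTL3 is the enzyme that deposits N6-methyladenosine (m6A) on transcripts, and the tag lets the small molecule dTAG-13 trigger its destruction. The 8 libraries formed 2 groups of 4, either untreated or given dTAG-13 for 26 hours, with 2 replicates of each clone per group and no doxycycline in any of them, so that Xist was not induced. Cells were grown on inactivated mouse fibroblast feeders. The molecule is labelled as total RNA, as in the study's methods, whereas the labelled extraction protocol isolates RNA from chromatin.

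The table holds 1 level per gene, the mean of normalised read counts over the libraries of both groups together. It therefore describes the RNA level of each exosome gene over treated and untreated cells together. Whether that RNA is total or from chromatin is not settled by the labels. The difference between dTAG-13 and untreated cells was not analysed here, because the values that bear on it are the results of the authors' own comparison and no column belongs to a single library. No spread between libraries is known for any level below, and no test of a difference between genes was made.

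The exosome core is built from a ring and a cap. A ring of 6 subunits related to bacterial RNase PH (EXOSC4 to EXOSC9) forms a channel through which RNA is threaded. A cap of 3 subunits with RNA-binding domains (EXOSC1, EXOSC2 and EXOSC3) sits on the ring at the entrance of that channel. In mammals the ring and cap are thought to have lost catalytic activity, and degradation is carried out by attached nucleases, EXOSC10 and DIS3 mainly in the nucleus and DIS3L in the cytoplasm. Adaptor complexes bring RNA to the core. Among them the nuclear exosome targeting complex (NEXT) and the poly(A) tail exosome targeting complex (PAXT) work in the nucleus, and the SKI complex works in the cytoplasm.

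All 10 core genes were expressed, and each lay above the median of expressed genes, both in mean count and per kb of length. Expressed genes are here the 13465 genes that had a gene model and whose mean count reached 10, and their median mean count was 376. Together the core genes had a summed mean count of 12101, or 0.0830% of the mean counts summed over all genes of the table, 14573411. A mean count grows with transcript length, so the mean counts of the members are given here as values and their order is read from the levels per kb that follow.

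Among the cap genes, Exosc2 had a mean count of 1889. Exosc3, the gene of another RNA-binding cap subunit, had a mean count of 990. Exosc1 had a mean count of 713.

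Among the ring genes, Exosc8 had a mean count of 1406, Exosc9 of 1281 and Exosc5 of 1182. Exosc6 had a mean count of 1030, Exosc4 of 890 and Exosc7 of 830. Exosc10, the gene of the nuclear exonuclease, had a mean count of 1889.

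**Figure D1:**
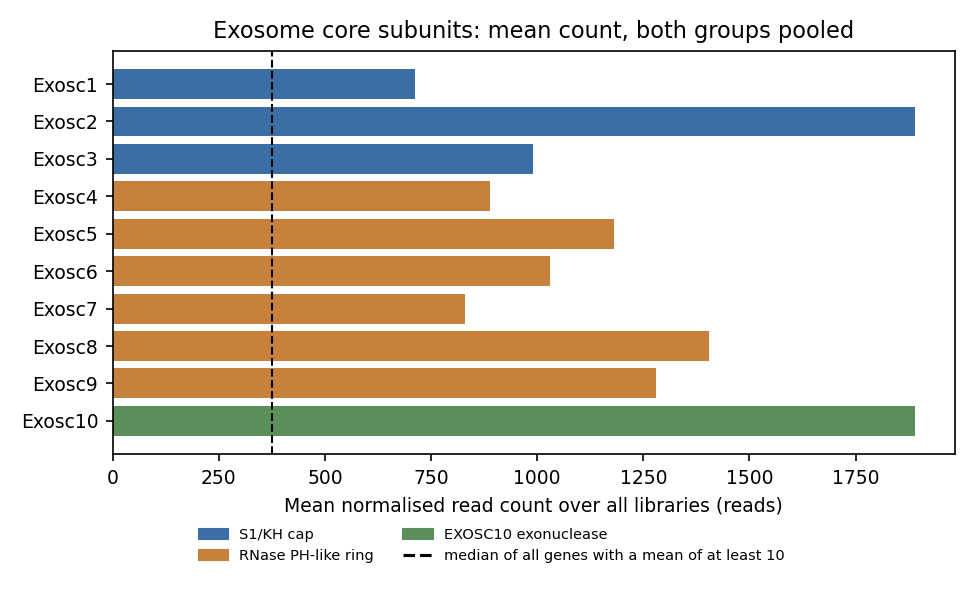
Mean normalised read count over all libraries of both groups (horizontal axis, reads) for each exosome core gene, with bars coloured by the subunit's place in the complex and a dashed line at the median of expressed genes, 376. All 10 bars reach past the dashed line, and since the counts are not divided by length the bars do not rank the genes.

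With the union of all annotated exons as the length, the median of the core was 391 reads per kb, against 81.2 reads per kb for expressed genes. Exosc6 had the highest level at 777 reads per kb, ahead of Exosc3 at 748 and Exosc2 at 654. Exosc6 lies wholly within same-strand exons of the gene Aars, as described below. Its place, and the upper end of the core's range with this length, are therefore uncertain. Exosc10 followed at 526 reads per kb and Exosc4 at 457. Exosc8 had 324 reads per kb and Exosc9 had 272. The lowest levels per kb were those of Exosc5 at 189, Exosc1 at 176 and Exosc7 at 138. In percentiles of expressed genes by level per kb, the core ran from 62.1 for Exosc7 to 91.8 for Exosc6, with a median of 83.0.

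That order rests on which exons make up the length, since the mean counts stay the same. The authors counted on an annotation from UCSC, so some exons in these lengths may not have been counted. For Exosc7 the union of exons is 5.71 times as long as its longest coding transcript, for Exosc5 3.73 times, for Exosc8 3.33 times and for Exosc9 2.91 times, whereas the median of expressed protein-coding genes is 1.29 times. With the longest coding transcript as the length, Exosc7 had 788 reads per kb and Exosc5 had 704. On that length Exosc2 was highest at 1121 reads per kb, with Exosc8 at 1081 and Exosc3 at 920. Exosc9 then had 792 reads per kb, Exosc6 777, Exosc10 677 and Exosc4 495. Exosc1 was lowest on that length at 311 reads per kb. Its longest coding transcript has a 3′ UTR of 1690 bases, the longest of the core. That transcript does not carry the gene's longest coding sequence. It has 465 coding bases with the stop codon, against 585 without it in the longest. Its 3′ UTR and stop codon therefore need not be those of the longest reading frame.

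With coding sequence alone as the length, the order changed again. Exosc2 led at 2149 reads per kb of coding sequence, followed by Exosc8 at 1698 and Exosc5 at 1677. Exosc6 had 1258 reads per kb of coding sequence, Exosc1 1219, Exosc4 1210 and Exosc3 1205. The lowest on this scale were Exosc9 at 975, Exosc7 at 951 and Exosc10 at 710. Exosc2 was the member among the highest 3 with each of the 3 lengths, and 0 members were among the lowest 3 with each of them. The highest level exceeded the lowest by 5.63 times with the union of exons, 3.61 times with the longest coding transcript and 3.03 times with coding sequence. Within the cap the corresponding ratios were 4.25, 3.61 and 1.78, and within the ring 5.63, 2.18 and 1.79, so which of them lay closer together changed with the length. With all of these lengths every core gene lay above the median of expressed genes.

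**Figure D2:**
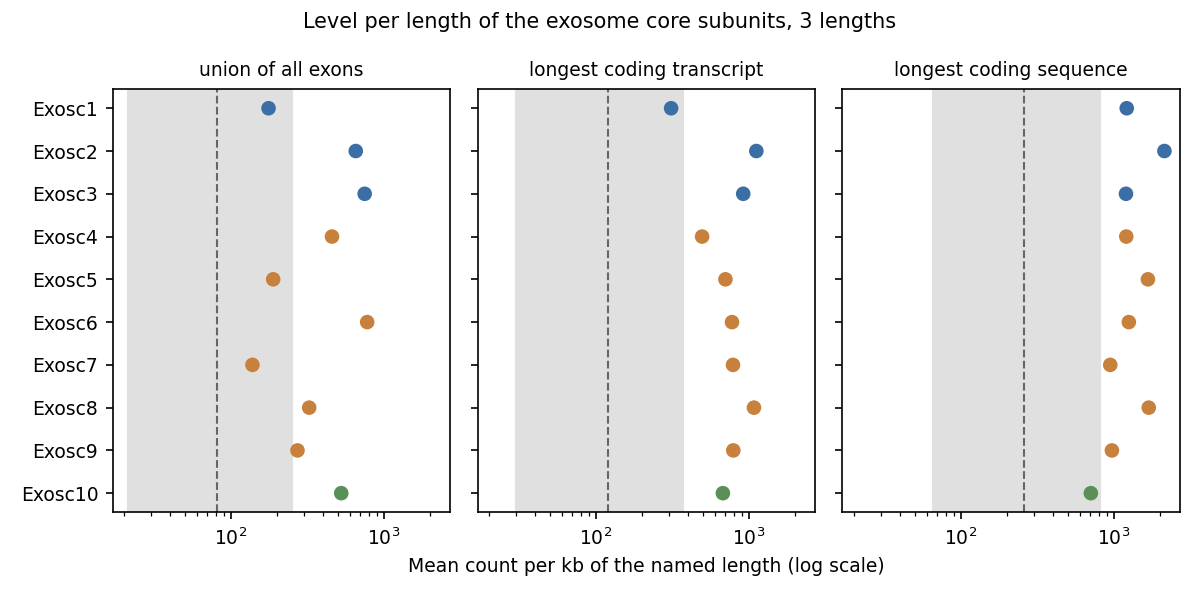
Mean count per kb (horizontal axis, log scale) of each exosome core gene with the union of all exons, the longest coding transcript or the longest coding sequence as the length, coloured by cap (blue), ring (orange) and EXOSC10 (green), with the middle 50% of expressed genes shaded and their median dashed. Exosc7 moves from 138 reads per kb in the left panel to 788 in the middle one, while Exosc6 stays at 777 in both.

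Levels of partner genes were read from the same column, per kb of the union of exons. They form a list of 22 genes, all of which were measured, and their median was 386 reads per kb against 391 for the core. Of these, 15 lay within the range of the core, 3 above it and 4 below it. With the longest coding transcript as the length 11 lay within the range, 4 above and 7 below, and with coding sequence 12, 3 and 7. With the union of exons, the 3 above were Wdr74, which encodes a nuclear WD repeat protein that works with the MTR4 helicase, at 1281 reads per kb, Pabpn1, the nuclear poly(A)-binding protein used by PAXT, at 919, and Srrt, which encodes the cap-complex partner ARS2, at 838. The 4 below were Skiv2l at 103, Dis3l at 86.0, Zcchc7 at 60.5 and Papd7 at 58.3 reads per kb.

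The nucleases were expressed at unequal levels. Dis3, which encodes the main processive nuclease of the nuclear exosome, had a mean count of 3480 and 449 reads per kb, beside 526 for Exosc10. Dis3l, which encodes its cytoplasmic counterpart, had a mean count of 469 and 86.0 reads per kb, near the median of expressed genes on that length. With coding sequence as the length, Dis3l had 149 reads per kb against a median of 260. On that length Dis3 had 1211 reads per kb, beside 710 for Exosc10. With the longest coding transcript Dis3 had 676 and Exosc10 677, so their order depends on the length. Among the small nuclear cofactors, Mphosph6, which helps to dock the helicase on the core, had 730 reads per kb and C1d had 196. The MTR4 helicase gene, listed under its older symbol Skiv2l2, had 493 reads per kb.

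The adaptors showed the same kind of range. For NEXT, the complex named in the study's title, Zcchc8 had 289 reads per kb and its partner Rbm7 had 341. For PAXT, Zfc3h1 had 142 reads per kb. Of the TRAMP-like polymerases, Papd5 had 369 reads per kb. In the cytoplasmic SKI complex, Ttc37 had 150 reads per kb and Wdr61 had 394, and Hbs1l, whose locus encodes a factor that joins SKI to the exosome, had 399. Zc3h18 had 377 reads per kb, and the cap-binding genes Ncbp1 and Ncbp2 had 650 and 674. Nrde2 had 506 reads per kb. The order of these genes also rests on the length used, and with the longest coding transcript the medians were 605 reads per kb for the partners and 783 for the core.

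**Figure D3:**
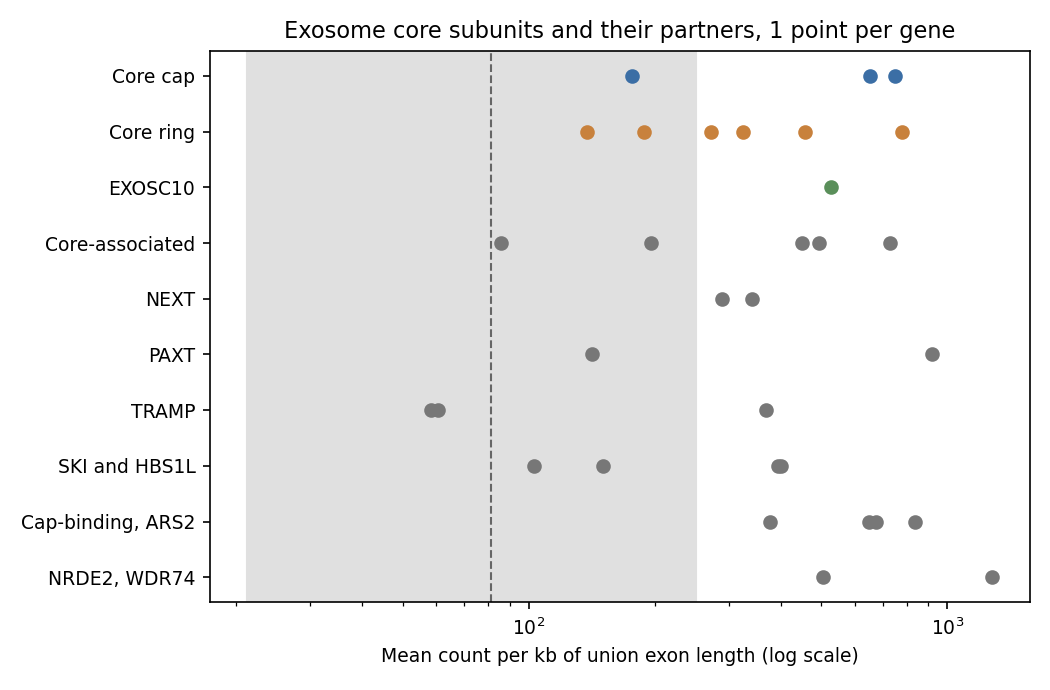
Mean count per kb of union exon length (horizontal axis, log scale) for the exosome core (coloured) and for its partner genes (grey), 1 point per gene in rows by complex, with the middle 50% of expressed genes shaded and their median of 81.2 dashed. Of the 22 partner genes, 15 fall between the lowest and the highest core gene, and Papd7 and Zcchc7 of the TRAMP row lie below the dashed line.

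Several core genes overlap neighbouring genes in the annotation, and no reads were examined here. In the GENCODE annotation of GRCm38, 8 of the 10 core genes are overlapped by another gene, and 7 of them in exons. Exosc6 (chromosome 8, 111056339 to 111057664, plus strand) is a single-exon gene of 1326 bases, and 100% of it lies within annotated exons of Aars, the alanyl-tRNA synthetase gene, on the same strand. Aars had a mean count of 8136. A read from the Exosc6 exon could belong to either gene in that annotation, so the level of Exosc6 is uncertain.

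The other exonic overlaps are on the opposite strand. They cover 19.8% of the exon bases of Exosc4 (chromosome 15, 76327397 to 76330677) with Oplah, which had a mean count of 80.5. For Exosc9 (chromosome 3, 36552606 to 36565727) they cover 10.8%, with the cyclin gene Ccna2, which had a mean count of 4707. For Exosc2 (chromosome 2, 31670715 to 31681349) they cover 12.4%, with the antisense gene Gm13427. They cover 5.66% for Exosc5 (chromosome 7, 25659164 to 25671368), with Tmem91, and 2.05% for Exosc8 (chromosome 3, 54728678 to 54735393), with Supt20. For Exosc3 (chromosome 4, 45316613 to 45342732) they cover 53 bases, with Dcaf10. Exosc10 (chromosome 4, 148558429 to 148582401) holds a processed pseudogene of the opposite strand between its exons. Exosc1 (chromosome 19, 41922292 to 41933423) and Exosc7 (chromosome 9, 123113215 to 123136129) had no overlapping gene. The library kit marks strand per the labels, but whether the counting used it is not certain, and reads from opposite strands cannot be told apart without it.

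A protein-coding gene on the opposite strand began within 1000 bases of the annotated start of 6 of the 10 core genes, against 15.6% of the 13038 expressed protein-coding genes and 10.9% of all 21951 in the annotation. The start of Exosc7 lies 10 bases from that of Zdhhc3, and the start of Exosc1 lies 57 bases from that of Zdhhc16, both palmitoyltransferase genes. Exosc8 starts 146 bases from Alg5 and Exosc5 starts 183 bases from Bckdha. For Exosc3 and Exosc4 the neighbours Dcaf10 and Oplah start inside the core gene, at 631 and 618 bases. These partners were named after their positions had been seen. RefSeq promoter windows of GRCm38.p6 around the annotated starts were listed for 8 of the core genes, and 9 windows in all held 11 to 41 CpG dinucleotides, against a median of 7 and a 75th percentile of 20 over 32851 windows. Of the 9 windows, 4 lay under that percentile. The 32851 windows are those of all listed promoters, whether or not the gene was expressed here. They therefore do not compare the core with other expressed genes.

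The transcripts of the core are short. The longest coding transcript had a median of 1649 bases in the core against 3169 bases over 13034 expressed protein-coding genes, and all 10 were shorter than that median. The median 3′ UTR was 346 bases against 1131, and 9 of 10 were below the median, Exosc1 being the exception. The Exosc1 value comes from a transcript without the gene's longest coding sequence. The exon number ran from 1 for Exosc6 to 25 for Exosc10. Of the 9 genes with internal exons, all 9 had a longest internal exon under the median of 218 bases, from 116 bases in Exosc1 to 207 in Exosc4. Long internal exons and the region around the stop codon are where m6A is known to be concentrated, and m6A itself was not measured in these libraries.

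**Figure D4:**
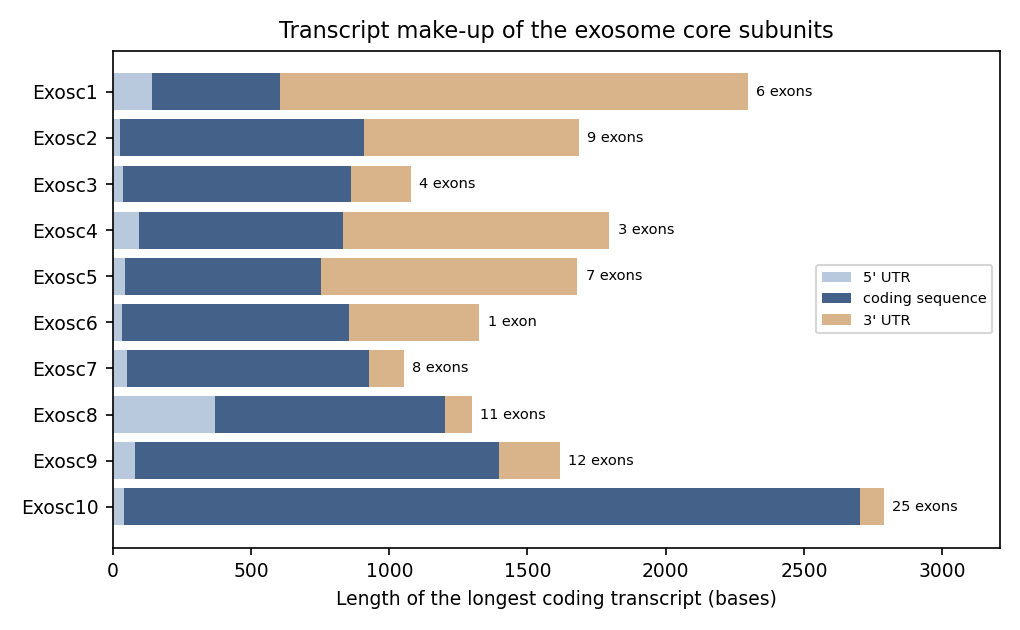
Length of the longest coding transcript of each exosome core gene (horizontal axis, bases), divided into 5′ UTR, coding sequence and 3′ UTR, with the exon number beside each bar. Exosc10 is longest through its coding sequence. Exosc1 has the longest 3′ UTR at 1690 bases, in a transcript that does not carry the gene's longest coding sequence.

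The methylated adenosine lies in a short consensus, of which GGACT is a common form. The letters GGACT were searched on the transcript strand of the longest coding transcripts. They occurred in all 10 core transcripts, and in 92.7% of 13026 expressed protein-coding genes. The density had a median of 1.21 per kb in the core and 1.05 per kb over those genes, and it ran from 0.44 per kb in Exosc1 to 3.02 per kb in Exosc6. In the 3′ UTR, 6 of 10 core transcripts held GGACT, against 63.0% of the same genes. A match is a description of letters, not a methylated site.

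The first GGACT after the stop codon of each of these 6 transcripts is printed because the region around and after the stop codon is where m6A is known to be dense. The sequences are from the GENCODE transcripts of GRCm38, read 5′ to 3′ on the transcript strand with up to 10 bases on each side, and the capitals mark GGACT.

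Exosc1: accccaaagaGGACTtcagcacttc

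Exosc2: ctgaaggatgGGACTgggcaccccc

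Exosc4: gtttcttcttGGACTtgtcggtggt

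Exosc5: gtgtcaaacaGGACTcagaggtgca

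Exosc6: gaggattcgaGGACTgctatcgccc

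Exosc10: tgctggagGGACTcctggggctg

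These stretches lie at chr19:41923949-41923973 (minus strand) for Exosc1, chr2:31680580-31680604 for Exosc2, chr15:76330340-76330364 for Exosc4, chr7:25671240-25671264 for Exosc5, chr8:111057213-111057237 for Exosc6 and chr4:148582315-148582337 for Exosc10, the last 5 on the plus strand. Counted from the first base after the stop codon, GGACT began at base 9 in Exosc10, 19 in Exosc1, 20 in Exosc2 and 31 in Exosc6. The Exosc1 position refers to the stop codon of a transcript without the gene's longest coding sequence. GGACT began at base 635 in Exosc4 and 809 in Exosc5. Exosc6 held 3 copies in its 3′ UTR and Exosc5 held 2.

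The labelled cell type was checked against its markers in the same column. All 8 embryonic stem cell markers had mean counts between 1415 and 11934, with Pou5f1 highest. Of the 8 fibroblast markers of feeder cells, Col1a1 had a mean count of 19.8, Col1a2 of 13.8, Col3a1 of 8.38, Postn of 0.768 and Thy1 of 116, while Vim, Fn1 and Sparc, which other cells also express, had 2073, 4941 and 3052. The part of feeder cells in the levels of the core was not tested.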

How the data were processed

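Total RNA-seq libraries were described by the labels as 8 samples in 2 groups. Per the paper's methods, the authors removed rRNA reads with bowtie2, aligned pairs with STAR to the N-masked mm10 genome, kept unique alignments, removed duplicates with Picard and counted genes and transposable elements with TEtranscripts under default parameters. The deposited signal column is, by its name, the mean of normalised counts over all libraries. The table has 5 further columns that hold the authors' comparison of both groups (log2 fold change, its error, statistic, p and adjusted p), and these were not used. No column belongs to a single library, so the planned edgeR test was not run.

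Symbols of the 17597 genes were matched to GENCODE vM21 of GRCm38, the build of mm10. Of these, 16660 matched directly and 725 through another symbol, 171 had no match and 41 with several matches were left out. The authors counted on an annotation from UCSC, which can differ in exons. Levels per kb were the mean count divided by the union of exons (main), the longest coding transcript or the longest coding sequence. Percentiles used genes whose mean count reached 10. Functions were tested on simulated data, and Python 3.11.15 with pandas 2.3.3 was used. The named genes were all members and all measured genes of the listed partner complexes, and overlapping genes. Members and lists were chosen with earlier results of these data known. Depth per library and the counting precision are unknown, since only a pooled mean was used.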

Additional observations from a re-analysis of the deposited data

How the results depend on the processing

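The median level of the core was 391 reads per kb with the union of exons, 783 with the longest coding transcript and 1215 with coding sequence. The median percentile among genes was 83.0, and it was 86.8 with no filter on low values, 87.7 with the longest coding transcript, 82.2 with coding sequence and 82.9 among protein-coding genes only. The ratio of the highest to the lowest level was 5.63 for all members, 3.61 with the longest coding transcript and 3.03 with coding sequence. Between Exosc1 and Exosc7 alone, the 2 members that no annotated gene overlaps, it was 1.27 with the union of exons, 2.54 with the longest coding transcript and 1.28 with coding sequence. Coding sequence as the length, and both other lengths for the percentile, the ratios and the partner counts, were chosen after seeing the data. Coding sequence took the place of the RefSeq protein length, which was not used here. The changes with length follow from the divisor itself. No paired analysis was possible because no column belongs to a single library. For the same reason the other normalizations, the count filters and the fits without each replicate were not run, and the spread between libraries is unknown.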
